A study of Papio anubis with 767 samples.

Results

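The genes described here are 9 transcripts of the brain's feeding circuit, taken as the rows of the deposited expression table whose symbol is AGRP, NPY, POMC, CARTPT, PMCH, HCRT, MC4R, LEPR or NPY1R, which are 9 of 29202 rows. They were chosen by name and not by a measured value, though with earlier results of these data known. The table comes from a diurnal survey of the olive baboon (Papio anubis) by RNA sequencing of stranded, polyA-selected libraries. By the labels, 12 males aged 5 to 6 years, with no genetic change or drug named, were kept on equal light and dark phases of 12 h each, with meals at clock hours 9 and 15. They were sampled every 2 h, 1 animal at each time from ZT0 (lights on) to ZT22. The survey covers 64 tissues with 12 libraries each, except the iris with 11, which gives 767 libraries. Of these tissues 9 are labelled as hypothalamic nuclei or areas (12 libraries each) and 13 as other brain regions, and the brain samples were punched from sections. Time of day and animal cannot be told apart in this design, and no female was sampled. In a bulk punch, fewer cells of a type and less RNA per cell cannot be told apart either.

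Neurons of the arcuate nucleus, at the base of the hypothalamus, read body energy state from hormones such as leptin, which fat cells release. A hunger-promoting set makes agouti-related peptide (AGRP) together with neuropeptide Y (NPY), and a satiety-promoting set makes pro-opiomelanocortin (POMC), the precursor of the melanocortin peptides, in many cells beside the peptide encoded by CARTPT. Melanocortins act on the melanocortin 4 receptor (MC4R), which AGRP blocks, in targets such as the paraventricular nucleus. The lateral hypothalamus holds separate neurons for melanin-concentrating hormone (PMCH) and for orexin (HCRT, also called hypocretin). Both peptides are known for promoting feeding, and orexin also for promoting wakefulness. LEPR encodes the leptin receptor and NPY1R a main receptor for NPY.

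Levels are the authors' FPKM values (fragments scaled by transcript length and a library factor), which are corrected for gene length. Comparisons between genes rest on the annotated lengths, which were not checked. The deposited identifiers are ENSPANG00000024565 for AGRP, ENSPANG00000021597 for NPY, ENSPANG00000009691 for POMC, ENSPANG00000011688 for CARTPT, ENSPANG00000015925 for PMCH, ENSPANG00000021456 for HCRT, ENSPANG00000004549 for MC4R, ENSPANG00000017953 for LEPR and ENSPANG00000022970 for NPY1R. The genome build is not given in the sources used here, so no coordinates are printed. Whole reads could be recovered from the values, and the hypothalamic libraries held 1.39 M to 10.3 M reads on genes (M for mega), with a median of 5.95 M. At the median depth 1 read was worth 0.420 FPKM for AGRP, 0.423 for HCRT, 0.336 for PMCH, 0.174 for CARTPT, 0.167 for MC4R, 0.110 for POMC, 0.0904 for NPY, 0.0469 for NPY1R and 0.0442 for LEPR. Over all 767 libraries the members had between 4849 reads (MC4R) and 562797 reads (PMCH), so MC4R levels rest on the fewest reads.

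Several libraries stood apart from their labels. Over 15511 genes, 27 hypothalamic libraries, out of 12 for each of 9 labels, correlated best with a library of another label, 1 of them outside the hypothalamus. The supraoptic library at ZT14 was closest to an arcuate library (r = 0.953, against 0.885 with its best own-label partner), and the suprachiasmatic library at ZT14 was closest to a library labelled Mammilliary body (r = 0.957, against 0.897). In the ZT14 supraoptic library AVP, the vasopressin gene that marks the nucleus, was at 92.8 FPKM, the lowest of 12, while GHRH, an arcuate marker, was at 245 FPKM. In the ZT14 suprachiasmatic library AVP was at 2.77 FPKM, the lowest of 12, and the arcuate marker TBX3 was at 107 FPKM. The label Mammilliary body as a whole lacked its own markers: FOXB1, LMX1B and BARHL1 together gave 0 to 0.812 FPKM (median 0.110), against 1.23 to 11.6 in the ventromedial label. Its summed arcuate markers (GHRH, KISS1, TAC3, TBX3) were at 133 to 741 FPKM, beside 70.3 to 653 under the arcuate label itself. It is called by its label below and no other name is given to it. Some results are also given without these libraries, while the levels and contrasts below include them unless stated.

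AGRP, which blocks melanocortin signalling, reached a median of 1 FPKM in the fewest tissues of the 9 genes. Its level in the arcuate nucleus was 103, 310 and 2222 FPKM (lowest, median and highest of 12), with the highest at ZT18. Under the label Mammilliary body it was 10.4, 87.3 and 360.5 FPKM, and the difference of their mean log2 levels (2.15) was larger than the spread between libraries (SD 1.72). In the ventromedial hypothalamus it was 2.30, 9.00 and 399 FPKM, and only the ZT4 library (269.5 FPKM) and the ZT18 library (399 FPKM) there were above 25.2 FPKM. In the supraoptic nucleus the ZT14 library held 1681 FPKM and the other 11 held 0 to 36.6. The lateral hypothalamus had 0, 2.69 and 32.4 FPKM. All arcuate libraries were above every library of the suprachiasmatic, paraventricular, dorsomedial, lateral and preoptic labels, and overlapped the mammillary label, those 2 ventromedial libraries and the ZT14 supraoptic library. AGRP had no read in any of the 12 preoptic libraries, so its arcuate mean was at least 3498-fold higher than the 0.142 FPKM that 3 reads over that whole group would give. The 5 of 64 tissues where its median reached 1 FPKM were all hypothalamic, and it had no read at all in 31 tissues, against 35 for HCRT.

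NPY was as high as AGRP in the arcuate nucleus but much wider in the brain. Arcuate levels of NPY were 159, 293 and 1873 FPKM, again highest at ZT18, and the mammillary label had 107, 273 and 500.1 FPKM. These ranges overlapped, and the difference between their mean log2 levels (0.53) was smaller than the spread between libraries (SD 1.01). The putamen followed with 70.9, 91.9 and 151 FPKM, the amygdala with 52.3, 89.2 and 149 FPKM and the prefrontal cortex with 25.97, 38.3 and 67.2 FPKM. Scattered interneurons of cortex and striatum are a known source of NPY. Of the other hypothalamic labels the supraoptic had a median of 29.5 FPKM and the dorsomedial a median of 7.88 FPKM, the lowest of the 9. The ZT14 supraoptic library held 2371 FPKM; without it the supraoptic mean was 40.1 ± 43.8 FPKM (SD, n = 11) instead of 234. NPY had reads in every tissue, with a median of at least 1 FPKM in 30 of 64.

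POMC was highest in the pituitary, where corticotrophs and melanotrophs cleave it to ACTH and related hormones, at 1.35, 765 and 5767 FPKM. The lowest value was the ZT4 pituitary library, which also had PRL (prolactin) at 14.03 FPKM (11.49 to 36136 in the others) and correlated best with a medial globus pallidus library; the other 11 ranged from 243 to 5767 FPKM. The arcuate nucleus came next with 124, 271 and 576 FPKM, a narrower spread than that of AGRP. The arcuate range lay above every library of the dorsomedial, paraventricular, suprachiasmatic and preoptic labels, whose highest single values were 8.33, 29.7, 3.59 and 9.82 FPKM. The mammillary label had 5.08, 29.8 and 305 FPKM, the ventromedial 10.2, 16.1 and 299.8 FPKM and the lateral hypothalamus 7.28, 15.5 and 131 FPKM. The step from the arcuate to the mammillary mean, 2.87 on the log2 scale, was larger than the spread between libraries (SD 1.76). Pituitary cells in a punch would also carry POMC. The transcripts PRL and GH1 (growth hormone) were at or below 0.555 FPKM in every arcuate library, while CGA, the alpha subunit shared by glycoprotein hormones, ran from 0.348 to 679 FPKM there and TSHB up to 128 FPKM; the part of such cells in the arcuate POMC level was not tested.

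**Figure D1:**
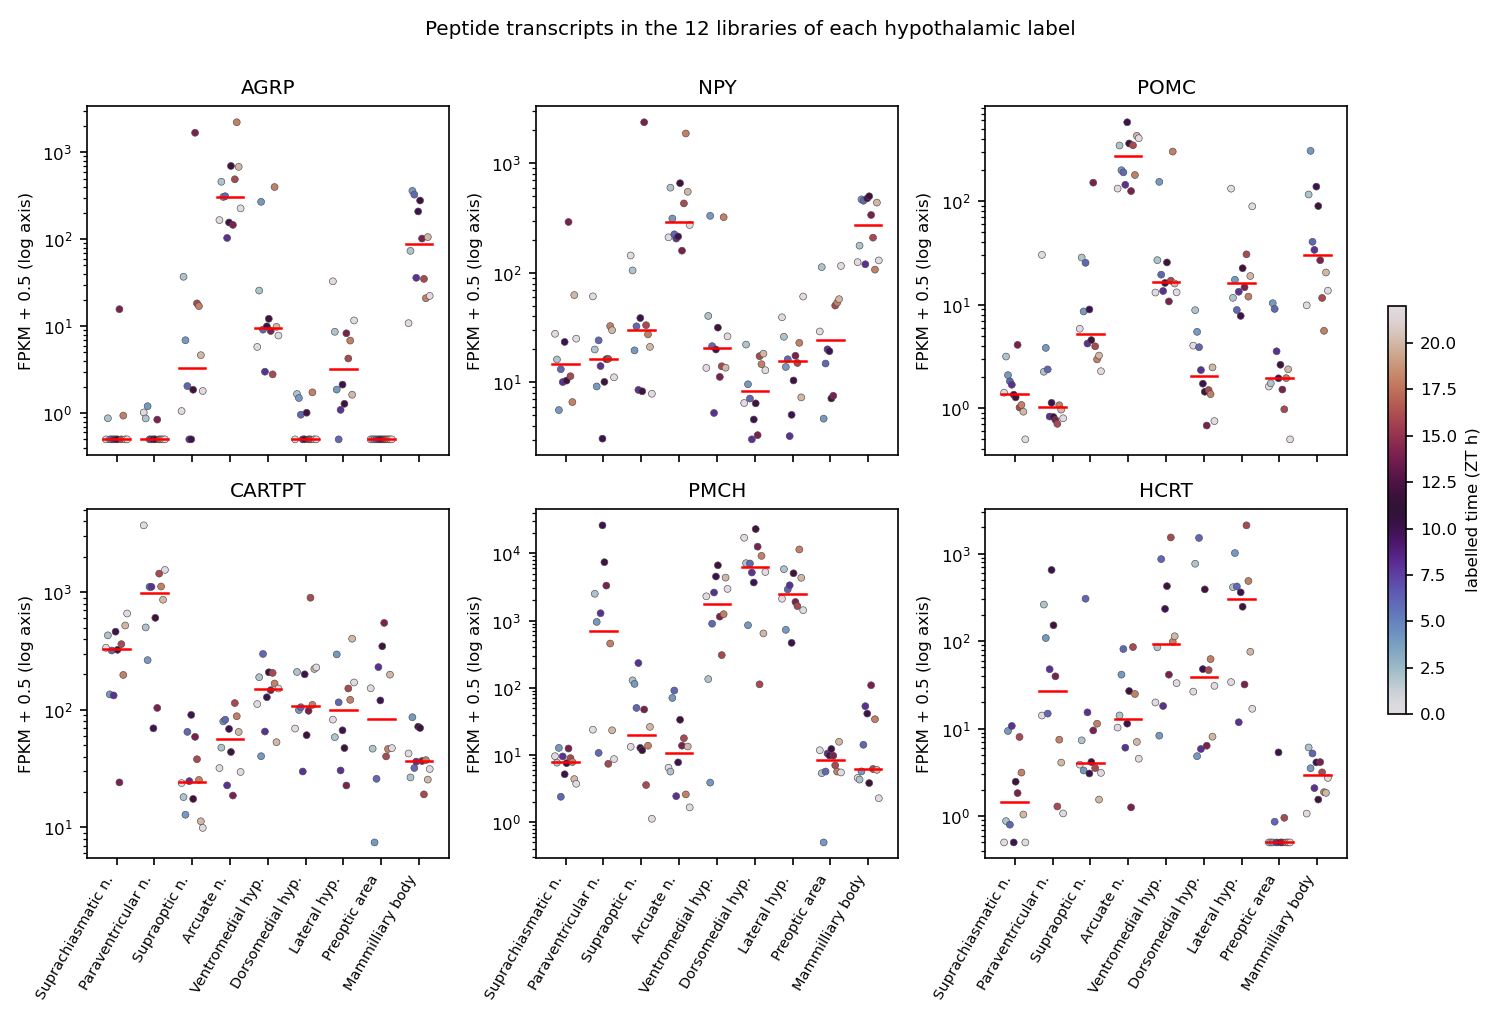
Each point is the level of a peptide transcript, FPKM + 0.5 on a log axis, in 1 library of a hypothalamic label on the x axis (12 libraries each, coloured by labelled time, red bar at the median). AGRP, NPY and POMC are highest under the arcuate and mammillary labels, PMCH and HCRT in the dorsomedial, lateral and ventromedial hypothalamus, and CARTPT in the paraventricular and suprachiasmatic nuclei.

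CARTPT, whose peptide is made by many neuron types and reduces feeding in rodents, was not an arcuate transcript foremost in these libraries. Its level in the paraventricular nucleus was 69.0, 987 and 3709 FPKM, with the highest at ZT0. The suprachiasmatic nucleus had 23.6, 330 and 659 FPKM, and its lowest value was the ZT14 library that stood apart. The arcuate nucleus had 18.1, 55.7 and 114 FPKM, which ranked ninth of 64 tissues by the median, behind 6 hypothalamic labels, the hippocampus (96.3, 234 and 272 FPKM) and the retina (85.6, 143 and 195 FPKM). Paraventricular and arcuate ranges overlapped in 2 paraventricular libraries, those at ZT10 (69.0 FPKM) and ZT14 (103 FPKM). The median of CARTPT reached 1 FPKM in 32 of 64 tissues, among them the stomach fundus at 12.1, 51.0 and 74.0 FPKM, a tissue whose endocrine cells and nerves are known to make the peptide.

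PMCH reached the highest levels of the 9 genes. The dorsomedial hypothalamus had 112, 6166 and 22965 FPKM, the lateral hypothalamus 466, 2506 and 11415 FPKM, the ventromedial 3.38, 1768 and 6633 FPKM and the paraventricular nuclei 6.89, 704 and 26083 FPKM. The lowest lateral value was above every library of the supraoptic (highest 233 FPKM), mammillary (109 FPKM), arcuate (90.6 FPKM), preoptic (15.2 FPKM) and suprachiasmatic (12.3 FPKM) labels. Paraventricular libraries fell into a low and a high set, with 5 at 6.89 to 23.3 FPKM and 7 at 455 to 26083 FPKM. The single low ventromedial library, at ZT4, was the same one that had high AGRP, and it correlated best with an arcuate library. None of the 4 neighbouring labels at the top of this order differed from the next by more than the spread between libraries.

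HCRT followed the same 4 labels at lower levels. The lateral hypothalamus had 11.3, 304 and 2105 FPKM, the ventromedial 7.81, 91.1 and 1530.3 FPKM, the dorsomedial 4.34, 38.2 and 1511 FPKM and the paraventricular nuclei 0.573, 26.7 and 650.2 FPKM. The arcuate nucleus had 0.759, 12.3 and 85.1 FPKM. All of these ranges overlapped, and no label differed from the next in this order by more than the spread between libraries. In the supraoptic nucleus a single library, at ZT6, held 305 FPKM and the other 11 held 1.04 to 14.8. HCRT had no read in 35 of 64 tissues, and in the preoptic area 9 of 12 libraries had none.

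MC4R, the receptor through which melanocortins limit feeding, was a low-level transcript with its highest median in the paraventricular nucleus, at 3.17, 8.63 and 15.4 FPKM. The dorsomedial hypothalamus had 0.749, 7.56 and 21.6 FPKM, the ventromedial 2.07, 5.49 and 11.503 FPKM, the suprachiasmatic 1.34, 3.45 and 6.81 FPKM and the preoptic area 0.946, 3.35 and 11.53 FPKM. In the arcuate nucleus, where the ligand genes AGRP and POMC were highest within the brain, MC4R was at 0.246, 1.65 and 6.44 FPKM. The supraoptic nucleus was lowest among the 9 labels at 0, 0.371 and 5.30 FPKM, and the 5.30 FPKM was the ZT14 library; the other 11 were at or below 1.23 FPKM. With all libraries the 9 ranges overlapped, and no label differed from the next in order by more than the spread between libraries. Without the ZT14 library the supraoptic range lay below every paraventricular, ventromedial and suprachiasmatic library. Outside the brain the spleen had the highest median, at 0.488, 3.29 and 10.3 FPKM, which rests on 316 reads over 12 libraries. MC4R had a median of at least 1 FPKM in 11 of 64 tissues.

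LEPR, the leptin receptor, was mainly a peripheral transcript. The liver had 0.963, 18.5 and 43.8 FPKM, the skin 1.84, 12.1 and 30.1 FPKM, the bone marrow 1.30, 9.14 and 43.4 FPKM, the perirenal fat 3.48, 8.51 and 13.6 FPKM and the prostate 2.47, 7.96 and 14.9 FPKM. By the median, the mammillary label came first of the hypothalamic labels and ranked 22 of 64 tissues, with 2.04, 2.55 and 5.35 FPKM, followed at rank 23 by the arcuate nucleus with 1.27, 2.21 and 3.29 FPKM. The preoptic area was lowest of the 9 at 0, 0.382 and 0.796 FPKM, below every arcuate and every mammillary library. The dorsomedial (0, 0.724 and 1.92 FPKM) and lateral hypothalamus (0.395, 0.662 and 1.58 FPKM) overlapped the arcuate range and lay below the mammillary range. The row does not separate the long, signalling form of the receptor from its short forms.

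NPY1R, the receptor through which NPY promotes feeding and narrows blood vessels, was found in nearly every tissue, with a median of at least 1 FPKM in 49 of 64. The label adrenal medulla had 13.4, 121 and 260.2 FPKM, the aorta 25.99, 54.1 and 88.1 FPKM, the hippocampus 29.9, 51.6 and 129 FPKM and the liver 7.90, 30.7 and 51.6 FPKM. The hippocampus and the liver, 1.04 apart in mean log2 level, were the only neighbours among the first 12 tissues to differ by more than the spread between libraries (SD 0.79). Within the hypothalamus NPY1R was more even than any peptide. The paraventricular nucleus had 4.52, 15.5 and 21.4 FPKM, the supraoptic 5.21, 12.9 and 56.0 FPKM, the arcuate 6.14, 10.7 and 21.8 FPKM and the dorsomedial, with the lowest median, 3.56, 5.81 and 13.03 FPKM, and all of these ranges overlapped.

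**Figure D2:**
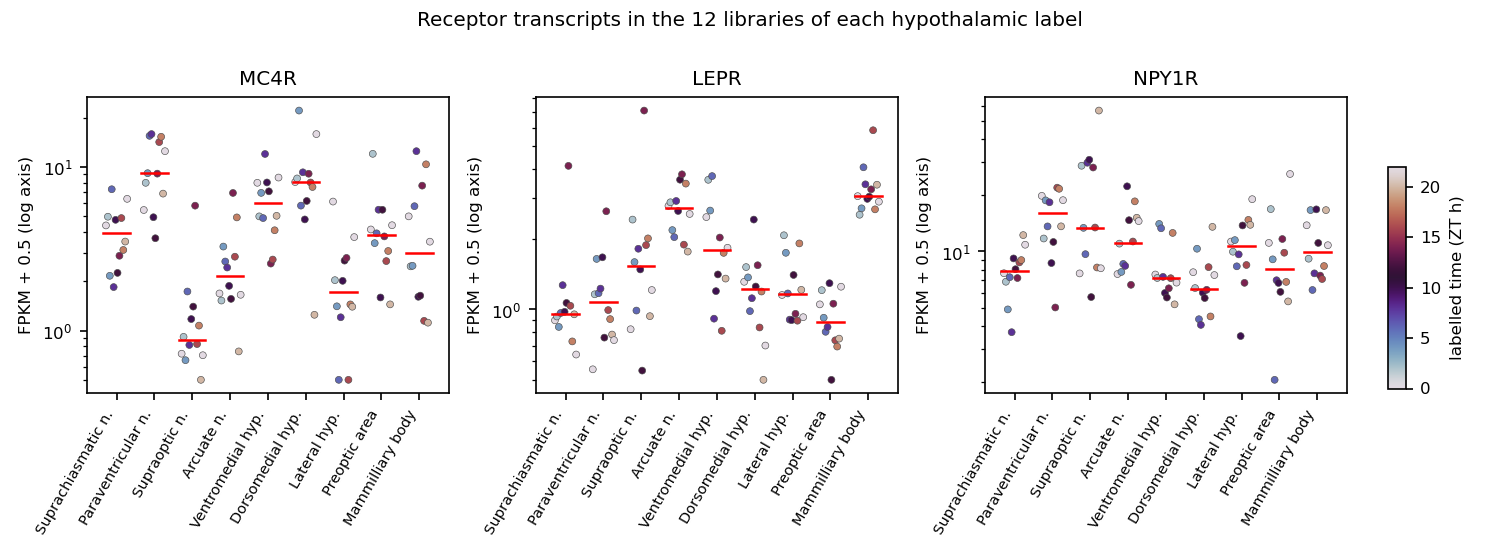
Each point is the level of a receptor transcript, FPKM + 0.5 on a log axis, in 1 library of a hypothalamic label on the x axis (12 libraries each, coloured by labelled time, red bar at the median). MC4R has its highest medians in the paraventricular (8.63 FPKM) and dorsomedial (7.56 FPKM) labels, LEPR in the mammillary (2.55 FPKM) and arcuate (2.21 FPKM) labels, and NPY1R ranges overlap throughout.

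**Figure D3:**
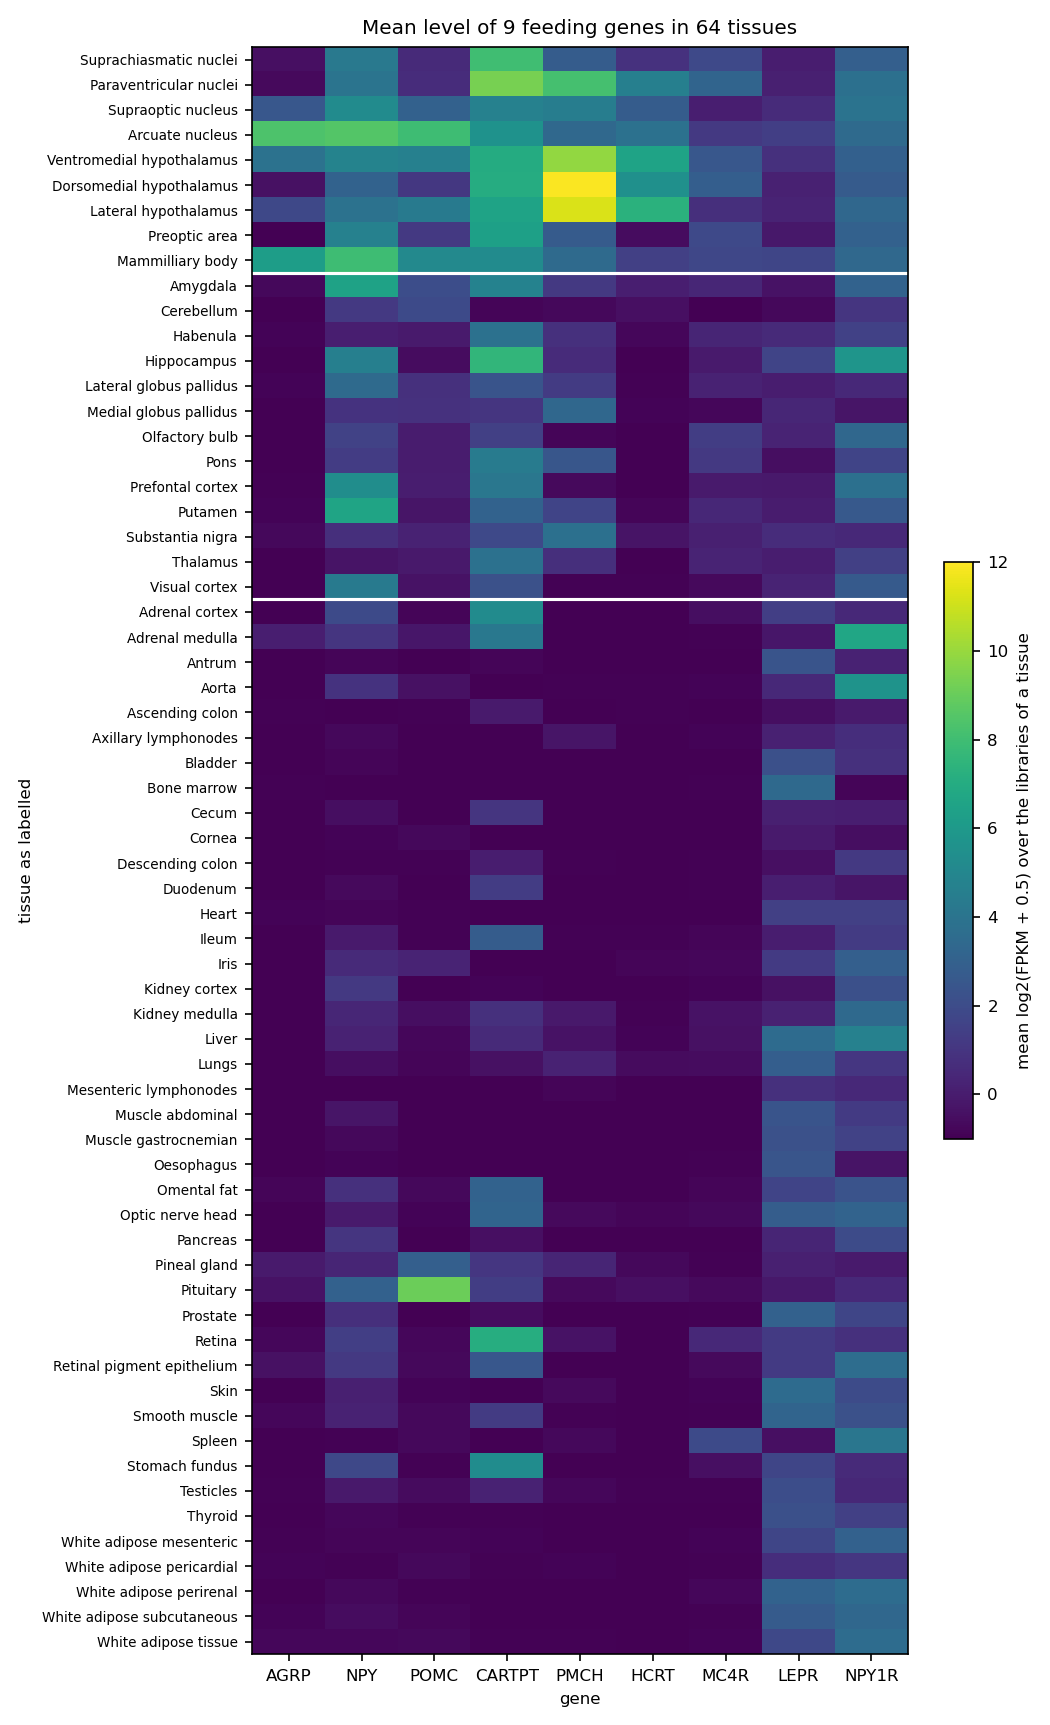
Colour gives the mean of log2(FPKM + 0.5) over the 12 libraries (iris 11) of each of 64 tissues on the y axis for the 9 genes on the x axis; white lines separate the hypothalamic labels, the other brain labels and the remaining tissues. AGRP, PMCH and HCRT stand out in hypothalamic rows, while LEPR and NPY1R are spread over many peripheral rows.

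The first comparison asked whether each gene was higher in the hypothalamus than in the rest of the brain. For each animal the mean log2(FPKM + 0.5) over the 9 hypothalamic labels was set against the mean over the 13 other brain labels, and limma was fitted across all 14342 rows with a mean of at least 1 FPKM in either group. All 9 genes passed at an adjusted p of 0.05 and all were higher in the hypothalamus, against a background of 39.7% of rows called higher. AGRP, HCRT, LEPR and MC4R had a mean below 1 FPKM in the other regions. They entered the fit only through the group where they are higher, so their direction is not independent of the filter. The mean of PMCH was 1883 FPKM in the hypothalamus and 5.99 FPKM elsewhere, and that of HCRT was 126 and 0.151 FPKM. AGRP had 94.1 against 0.0429 FPKM, POMC 51.6 against 1.31 FPKM, CARTPT 235 against 28.3 FPKM and NPY 134 against 23.9 FPKM. The log2 differences, which understate changes of low genes because of the added 0.5, were largest for PMCH (5.50 ± 0.28, SE, 12 animals), HCRT (4.36 ± 0.30) and CARTPT (3.60 ± 0.16). They were 3.18 ± 0.22 for AGRP, 2.83 ± 0.20 for POMC and 2.38 ± 0.17 for NPY.

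The receptors differed less between the hypothalamus and other brain regions than the peptides did. MC4R had a mean of 4.42 FPKM against 0.917 FPKM elsewhere in the brain (log2 difference 1.65 ± 0.13, limma adjusted p = 1.62e-11). NPY1R had 10.9 against 9.09 FPKM (1.17 ± 0.10, adjusted p = 6.31e-11) and its mean in the other regions ran from 0.427 FPKM in the medial globus pallidus to 59.3 FPKM in the hippocampus. LEPR had 1.25 against 0.796 FPKM (0.39 ± 0.10, adjusted p = 0.00169), and the median of all rows was itself shifted by 0.08. The LEPR call rests on the mammillary label: without those libraries, an alternative chosen after the data were seen, the difference was 0.25 with an adjusted p of 0.0570. The other 8 genes were called in every alternative run that tested them, and MC4R was not tested with a filter of 5 FPKM.

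The second comparison asked which nucleus held each gene, by fitting the 12 libraries of a label against the 12 per-animal means of the other 8 labels. Of the 81 results, 54 passed an adjusted p of 0.05 in limma, 23 higher and 31 lower, and many other genes did so too. The same filter applied, so a gene nearly absent from a label, such as AGRP in the preoptic area, entered only through the other labels. Because the fit averages log2 values, a label can be called higher although its mean FPKM is lower, where a few libraries of other labels hold very high levels. In the arcuate nucleus 7 of 9 genes were called, against 61.7% of all rows, and the median row was higher there by 0.39. The agouti-related peptide gene AGRP had a mean of 497 FPKM in the arcuate and 43.8 FPKM in the other labels, a log2 difference of 6.90 ± 0.40 (SE, adjusted p = 4.16e-13). POMC differed by 5.40 ± 0.27 (285 against 22.4 FPKM, adjusted p = 3.31e-14) and NPY by 3.75 ± 0.32 (476 against 91.5 FPKM, adjusted p = 2.52e-10). LEPR was higher by 0.94 ± 0.15, which is 0.55 above the median row. MC4R (-0.68 ± 0.26), CARTPT (-1.14 ± 0.25) and PMCH (-3.44 ± 0.58) were lower there, and HCRT and NPY1R did not pass the test. The MC4R difference lost its call in 4 of 21 alternatives.

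Under the label Mammilliary body 7 of 9 genes were called, against 63.5% of rows, in the same directions as in the arcuate for 6 genes. The AGRP difference was 4.49 ± 0.52, that of NPY 3.15 ± 0.31, that of POMC 2.17 ± 0.49 and that of LEPR 1.28 ± 0.14, of which 0.18 was shared by the median row. CARTPT (-1.55 ± 0.22), PMCH (-3.35 ± 0.55) and HCRT (-2.39 ± 0.39) were lower. The arcuate and mammillary contrasts each contain the other label on their reference side. The 6 anterior pituitary markers summed to 11.2 to 756 FPKM under the mammillary label (median 90.6) and had a median of 97.9 FPKM under the arcuate label, against medians of 1.65 to 5.24 FPKM in the other 7 labels; their part in the POMC level was not tested. Whether the mammillary punches held arcuate tissue was not tested beyond the marker levels given above.

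In the paraventricular nucleus 7 of 9 genes were called, against 45.9% of rows. CARTPT was higher by 3.02 ± 0.46 (1037 against 135 FPKM, adjusted p = 1.11e-05), MC4R by 1.56 ± 0.24 (9.54 against 3.78 FPKM, adjusted p = 1.24e-05) and NPY1R by 0.59 ± 0.20 (14.8 against 10.4 FPKM, adjusted p = 0.0157). The peptide genes AGRP (-3.30 ± 0.28), POMC (-2.85 ± 0.45) and NPY (-1.29 ± 0.34) were lower. LEPR was lower by 0.49, a call kept in 8 of 21 alternatives. In the suprachiasmatic nucleus, the circadian pacemaker, 7 of 9 were called, against 43.6% of rows: CARTPT was higher by 1.499 ± 0.36 and 6 genes were lower, among them PMCH (-4.14 ± 0.36) and HCRT (-3.10 ± 0.56). The LEPR call there held in 12 of 21 alternatives and the NPY1R call in 16 of 22.

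In the lateral hypothalamus 5 of 9 genes were called, against 69.5% of rows. PMCH was higher by 5.38 ± 0.46 (3426 against 1690 FPKM, adjusted p = 2.17e-09) and HCRT by 4.19 ± 0.70 (435 against 87.6 FPKM, adjusted p = 1.68e-05). POMC was higher by 1.31 ± 0.39 on the log2 scale, but its mean FPKM was lower there, at 31.0 against 54.1. NPY (-1.45 ± 0.36) and MC4R (-1.15 ± 0.32) were lower. In the dorsomedial hypothalamus 6 of 9 were called, against 18.1% of rows. PMCH was higher there by 6.16 ± 0.65 (7642 against 1163 FPKM, adjusted p = 1.11e-07) and MC4R by 1.23 ± 0.30 (8.38 against 3.93 FPKM, adjusted p = 0.00406). AGRP, NPY, POMC and NPY1R were lower there, by 3.00, 2.31, 2.31 and 0.64 on the log2 scale, and HCRT had a difference of 2.15 ± 0.80 with an adjusted p of 0.0612.

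In the ventromedial hypothalamus 6 of 9 genes were called, against 55.8% of rows, and the median row was higher by 0.27. PMCH (3.83 ± 0.83), HCRT (3.34 ± 0.68), AGRP (1.82 ± 0.63), POMC (1.67 ± 0.43) and MC4R (0.81 ± 0.23) were higher. The AGRP call was lost with a pseudocount of 1 (adjusted p = 0.0525), and NPY1R, lower by 0.37, kept its call in 6 of 22 alternatives. In the supraoptic nucleus 4 of 9 were called, against 48.8% of rows: CARTPT (-2.21 ± 0.30), PMCH (-2.18 ± 0.65) and MC4R (-1.93 ± 0.28) were lower and NPY1R was higher by 0.75 ± 0.30. Without the ZT14 supraoptic and suprachiasmatic libraries the NPY1R call was lost (adjusted p = 0.0602). Supraoptic punches also had the lowest neuron content by SNAP25, SYT1, RBFOX3 and STMN2, which summed to 34.8 to 498 FPKM there (median 127) against medians of 347 to 779 in the other labels; the part of this in the lower peptide and receptor levels was not tested. In the preoptic area 5 of 9 were called, against 26.5% of rows, all lower: HCRT (-4.69 ± 0.43), PMCH (-4.20 ± 0.45), AGRP (-3.66 ± 0.25), POMC (-2.26 ± 0.36) and LEPR (-0.81 ± 0.16).

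AGRP and NPY, which the same arcuate neurons are known to make, moved together between animals. Their ratio of FPKM in the arcuate nucleus stayed between 0.503 and 1.39 (median 0.949) while AGRP ran from 103 to 2222 FPKM and NPY from 159 to 1873 FPKM. Across the 12 arcuate libraries Pearson's r of their log2 levels was 0.955 (permutation p = 1e-05, the smallest that 100000 resamples can give, adjusted p = 0.00012 over 12 relations) and Spearman's rho was 0.944 (permutation p = 4e-05, adjusted 0.00048). Without the 2 libraries farthest from the median of AGRP r was 0.933, and relative to the neuron markers it was 0.960. That last run subtracts the same marker mean from both genes, which can itself raise r, so it is no independent check. Differences between punches in how much arcuate tissue they held would move both genes, and their part was not tested. Under the mammillary label the AGRP to NPY ratio was lower, at 0.0829 to 0.769 (median 0.2995).

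AGRP and POMC, which come from separate arcuate neurons, did not show such a relation: r was 0.227 (permutation p = 0.483, adjusted 0.644) and rho 0.336 (permutation p = 0.285, adjusted 0.445), and r was 0.421 without the 2 libraries farthest from the median of AGRP. The ratio of AGRP to POMC ran from 0.270 at ZT10 to 12.5 at ZT18, with a median of 1.38. The difference between the AGRP-NPY and AGRP-POMC correlations was not itself tested. AGRP and CARTPT had r = 0.616 in the arcuate nucleus (permutation p = 0.0306, adjusted 0.122; rho = 0.622, adjusted 0.201; 0.478 without the 2 farthest libraries). Relative to neuron markers that r was 0.725 with an adjusted permutation p of 0.0465, the single alternative run in which AGRP and CARTPT passed. Because the same marker mean is subtracted from both genes there, r can rise from that shared term, and no conclusion is drawn from this pass. PMCH and HCRT, whose neurons lie intermingled, had r = -0.0594 in the lateral hypothalamus (permutation p = 0.851; rho = -0.00699, permutation p = 0.991) and 0.317 in the dorsomedial hypothalamus (permutation p = 0.32; rho = 0.329, permutation p = 0.297). PMCH and CARTPT had r = -0.701 in the dorsomedial hypothalamus (permutation p = 0.0124, adjusted 0.0745; rho = -0.58, adjusted 0.201), which fell to -0.227 without the 2 farthest libraries. It passed without the ZT4 animal (r = -0.775, adjusted permutation p = 0.0324) and without the ZT8 animal (r = -0.801, adjusted permutation p = 0.0280). Of the 12 relations 1 passed after adjustment, and no technical batch is named in the labels within which to repeat them.

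**Figure D4:**
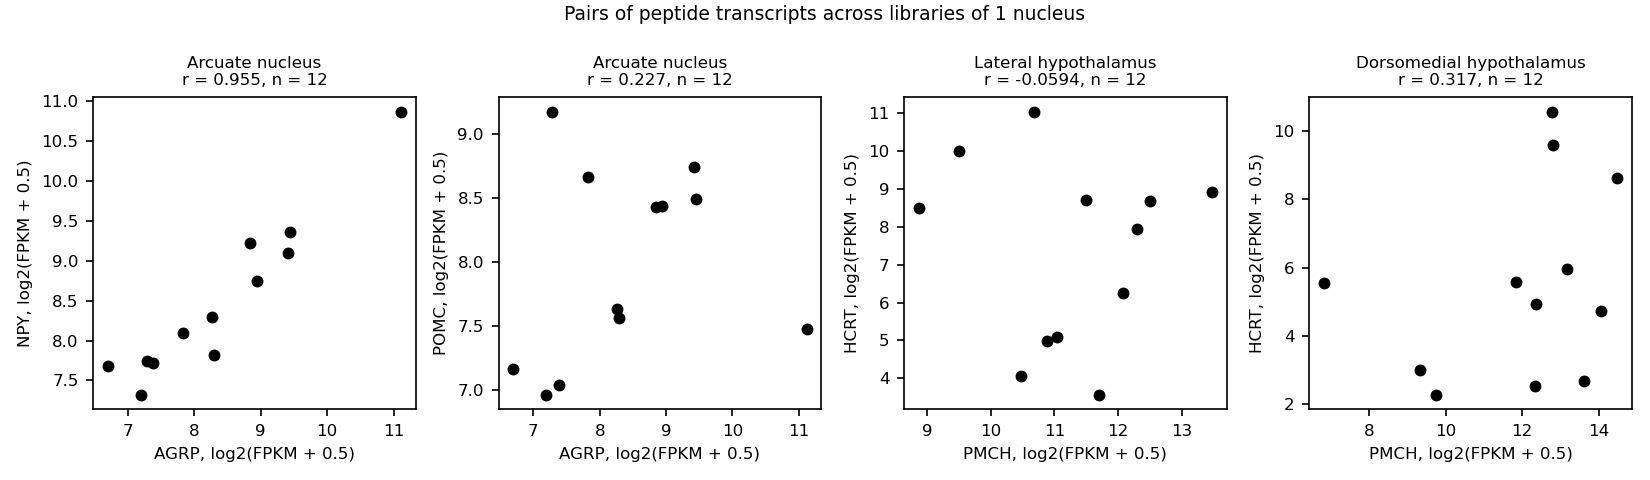
Each point is 1 library of the nucleus named above the panel (12 per panel), with the log2(FPKM + 0.5) of a pair of peptide genes on the axes and Pearson's r in the title. AGRP and NPY lie along a line in the arcuate nucleus (r = 0.955), while AGRP with POMC, and PMCH with HCRT in both nuclei, scatter widely.

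The third comparison asked whether the genes followed a 24 h rhythm in the hypothalamus, by a cosine and sine fit to the per-animal mean over the 9 labels of log2 levels centred on each label. None of the 9 genes passed an adjusted p of 0.05 in limma, against a background of 3.02% of rows called (421 of 13923). An unadjusted p below 0.05 was found for 4 of the 9, and for 27.1% of all rows. NPY had an amplitude of 0.59 ± 0.16 log2 units (SE), a 2.26-fold range from trough to peak, with its fitted peak at ZT20.7 (adjusted p = 0.0840). POMC had nearly the same amplitude (0.57 ± 0.16, 2.20-fold) with its fitted peak at ZT4.58 (adjusted p = 0.0927). Without the ZT14 libraries of the supraoptic and suprachiasmatic labels, an alternative chosen after the data were seen, both passed (adjusted p = 0.0387 for NPY and 0.049 for POMC). The number of rhythmic rows in this fit ranged from 3 to 1265 over the alternatives, so its calls as a set are not stable. For NPY and POMC neither a call nor its absence was stable, while the other 7 genes were called in no alternative.

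The remaining genes were further from the threshold in this fit. NPY1R peaked at ZT21.5 with an amplitude of 0.26 ± 0.08 (adjusted p = 0.129), beside ZT20.7 for NPY. PMCH peaked at ZT10.5 with 0.85 ± 0.30 (adjusted p = 0.172) and HCRT at ZT8.80 with 0.81 ± 0.35 (adjusted p = 0.269). The adjusted p was 0.466 for CARTPT, 0.685 for LEPR, 0.693 for AGRP and 0.760 for MC4R.

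Some animals departed from the label means in most or all labels. At ZT8, NPY was below its label's mean in all 9 labels, by 1.30 ± 0.81 log2 units (mean and SD over labels), and AGRP was below it in 8, by 1.30 ± 1.11 over all 9; the ninth, the preoptic area, has no AGRP read at any time. POMC was highest at ZT4, at 1.18 ± 1.27 above the label means with 7 of 9 labels above their own mean, and lowest at ZT22, at -0.84 ± 1.38. HCRT was below the label mean in all 9 labels at ZT0 (-1.22 ± 0.72) and at ZT22 (-1.66 ± 1.43), and highest at ZT6 (1.89 ± 2.36). MC4R was below it in all 9 labels at ZT20 (-1.01 ± 0.84). LEPR was highest at ZT14 (0.73 ± 0.90, 8 of 9 labels above their mean), the animal whose supraoptic and suprachiasmatic libraries stood apart. The animals were picked here for their values, and with 1 animal at each time these deviations belong to an animal as much as to a time.

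**Figure D5:**
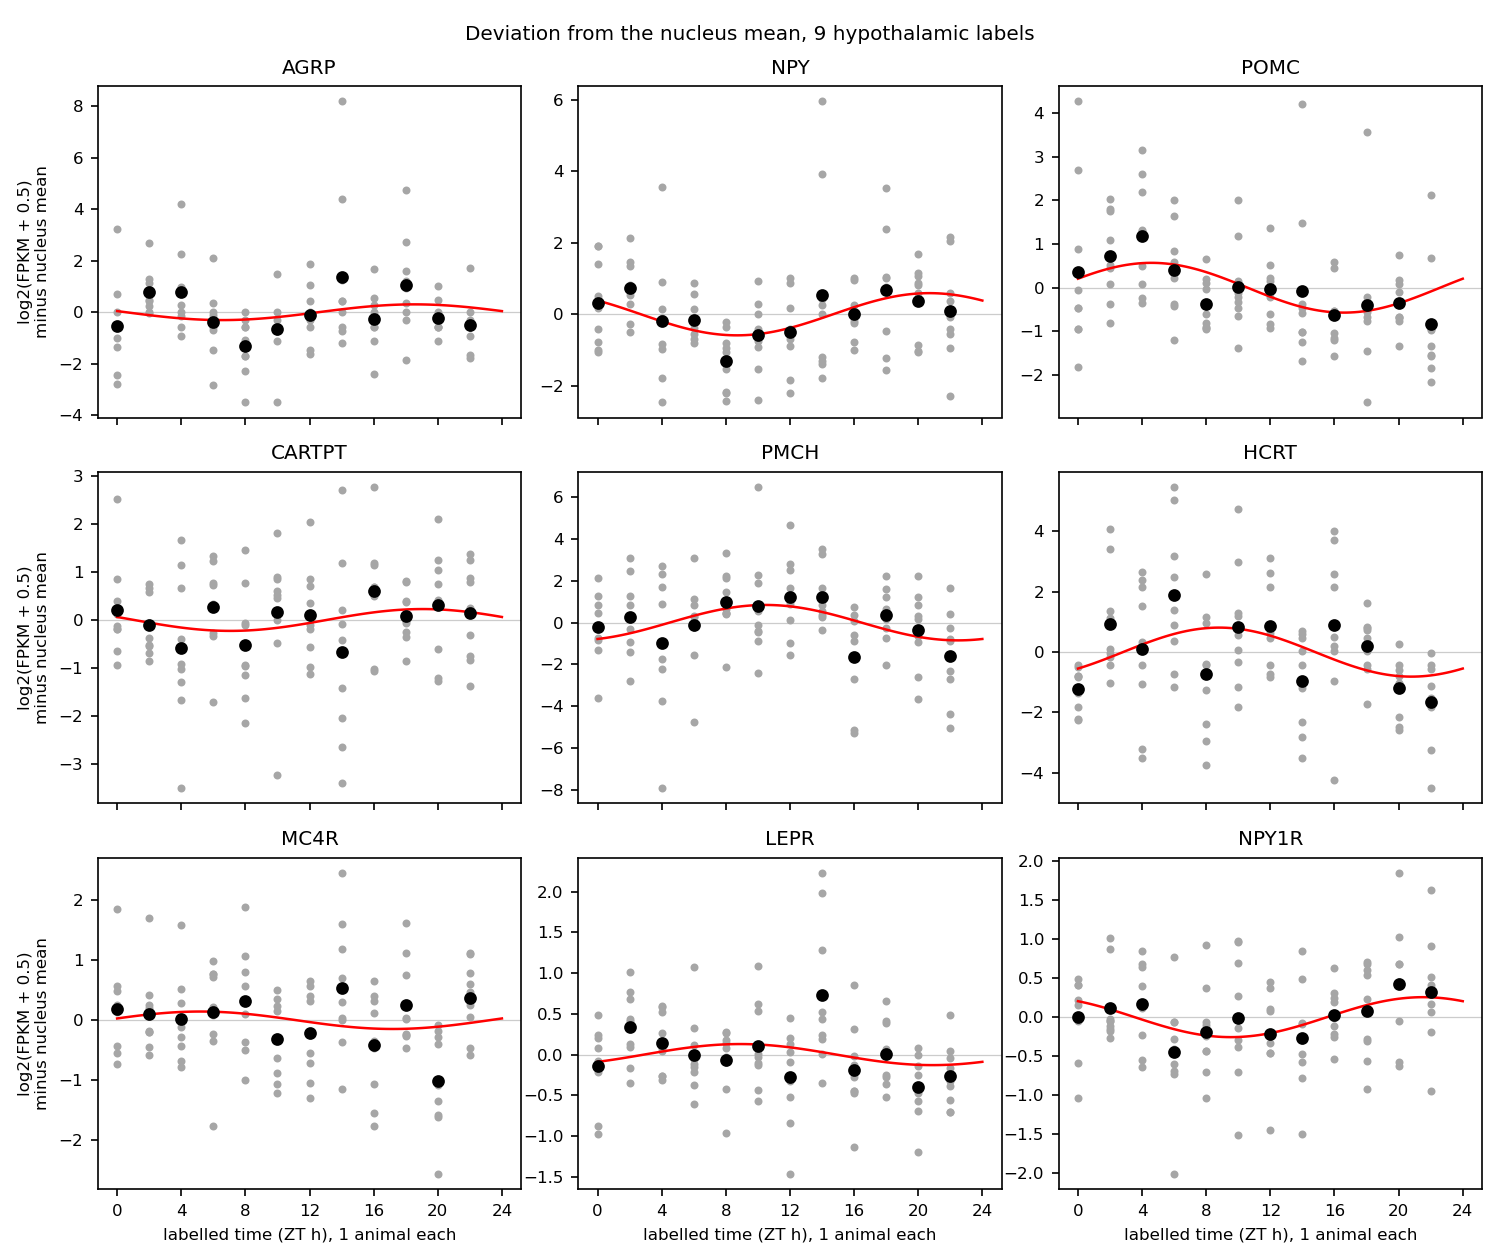
Grey points are log2(FPKM + 0.5) minus the label's mean in each of 9 hypothalamic labels, black points their mean for the animal of that labelled time (x axis, ZT in h), and the red line is the fitted 24 h cosine. The NPY curve has its crest near ZT20.7 and the POMC curve near ZT4.58, with a spread of single labels larger than either amplitude.

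Within single labels, members with a mean of at least 1 FPKM gave 71 tests, of which 1 passed, against 3.2% of all gene and label pairs. An unadjusted p below 0.05 was found for 15 of the 71, and for 19081 of all 119585 pairs. The call was HCRT in the paraventricular nuclei, where 20.9% of all rows were called. HCRT there had an amplitude of 2.89 ± 0.78 log2 units, a 55.2-fold range, with its fitted peak at ZT7.74 (adjusted p = 0.0476). Its highest values were 650.2 FPKM at ZT10 and 261 FPKM at ZT2 and its lowest 0.573 FPKM at ZT22 and 0.789 FPKM at ZT16. PMCH in the same libraries was also highest at ZT10 (26083 FPKM) and lowest at ZT16 (6.89 FPKM), with an amplitude of 3.54 ± 1.26 and an adjusted p of 0.116. Both are transcripts of the lateral and dorsomedial hypothalamus, and how much of that tissue each paraventricular punch held was not tested. The HCRT call was kept in 8 of 22 alternatives.

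In the arcuate nucleus, where AGRP and POMC were highest within the brain, neither showed a rhythm in this fit (adjusted p = 0.999 for AGRP and 1.00 for POMC), and 3 rows of all 14420 tested there were called. POMC had an unadjusted p below 0.05 in the dorsomedial (fitted peak ZT3.33), mammillary (ZT6.82), paraventricular (ZT1.92) and preoptic (ZT6.45) labels. NPY did so in the dorsomedial (ZT21.5), lateral (ZT22.2) and preoptic (ZT21.4) labels, and AGRP in the lateral (ZT21.0) and mammillary (ZT8.55) labels. So did PMCH in the paraventricular and supraoptic, CARTPT in the supraoptic, NPY1R in the suprachiasmatic and LEPR in the ventromedial label. In its other labels POMC had fitted peaks from ZT7.62 (suprachiasmatic) to ZT22.7 (ventromedial). Those of NPY ran from ZT9.75 (mammillary) to ZT23.6 (ventromedial). None of these passed after adjustment, with adjusted p values from 0.0659 to 1.00.

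Pathway genes that act around the members were followed as 6 lists of 52 genes, of which 47 have a row. In the comparison of the hypothalamus with other brain regions 31 were tested, and 16 were called higher (51.6%, against 39.7% of all rows), 8 lower (25.8%, against 28.7%) and 7 neither, with a median log2 difference of 0.41 against 0.08 for all rows. Of the NPY family both tested receptors were higher, NPY2R, the autoreceptor on NPY neurons, by 0.76 ± 0.11 and NPY5R by 0.61 ± 0.09. HCRTR2, an orexin receptor, was higher by 1.42 ± 0.07, and MRAP2, an accessory protein of MC4R, by 1.45 ± 0.10 (22.2 against 9.68 FPKM). Prohormone processing had 3 of 6 higher and 2 lower, led by PCSK1N (3.30 ± 0.28), an inhibitor of the convertase, and PCSK1 (1.76 ± 0.14), the convertase that cleaves POMC. Leptin signalling was split, with 2 of 5 higher and 2 lower, SH2B1 by 0.64 ± 0.15 and PTPN2 by -0.43 ± 0.05. Of the other appetite signals 7 of 14 were higher and 4 lower, led by NTS (4.13 ± 0.20) and GAL (4.00 ± 0.21), the neurotensin and galanin genes.

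In the arcuate nucleus 14 of 32 tested pathway genes (43.8%) were called higher, fewer than the 51.5% of all rows, and 7 (21.9%) were lower, against 10.2% of rows, with a median of 0.25 against 0.39 for all rows. Leptin signalling had 5 of 6 higher and 1 lower; SOCS3, the feedback inhibitor of the leptin receptor, was higher by 1.08 ± 0.27 and SH2B1, an adaptor of the receptor's kinase, by 1.06 ± 0.13. MC3R, a second brain melanocortin receptor, was higher by 1.32 ± 0.20 (1.99 against 0.767 FPKM), while MRAP2 was lower by 0.80 on the log2 scale, the same direction as MC4R. NPY2R was higher by 0.99 ± 0.25 and NPY5R by 0.69 ± 0.16. TRH (-2.71 ± 0.32) and BDNF (-1.26 ± 0.29), both known to act downstream of melanocortin signalling, were lower.

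In the paraventricular nucleus 11 of 31 pathway genes (35.5%) were higher, against 10.7% of all rows, and 6 (19.4%) lower, against 35.3%. The largest difference was that of PCSK1N (-3.90 ± 0.75), and SH2B1 was lower too (-1.60 ± 0.29). MRAP2 was higher by 1.22 ± 0.22 (43.2 against 19.6 FPKM), beside MC4R and NPY1R. NPY5R was higher by 0.76 ± 0.27, and CRH (3.11 ± 0.61) and TRH (2.14 ± 0.40), the hormones this nucleus releases to the pituitary, were higher too. In the lateral hypothalamus, where PMCH and HCRT led, 7 of 31 (22.6%) were higher and 12 (38.7%) lower, shares near or below the 29.1% and 40.3% of all rows. PCSK1N had the largest difference there (4.21 ± 0.39). Both tested orexin and MCH receptors were higher there, HCRTR2 by 1.02 ± 0.23 and MCHR1 by 0.71 ± 0.18. STAT3, the transcription factor of leptin signalling, was lower by 1.82 on the log2 scale, as was NPY2R (-1.48 ± 0.17). In the dorsomedial hypothalamus 4 of 31 were higher (12.9%, against 4.62% of rows) and 2 lower (6.45%, against 13.4%), with BDNF higher by 1.65 ± 0.27 and PCSK1N lower by 1.85 on the log2 scale. In the ventromedial 8 of 33 were higher (24.2%, against 44.9%) and 2 lower (6.06%, against 10.8%). Under the mammillary label 14 of 34 were higher (41.2%, against 41.0% of rows) and 10 lower (29.4%, against 22.5%), with MC3R (1.76 ± 0.22) and NPY2R (2.07 ± 0.19) higher as under the arcuate label. The suprachiasmatic label had 9 of 31 higher (29.0%, against 15.7% of rows) and 4 lower (12.9%, against 3951 of 14131 rows). The supraoptic label had 6 of 33 higher (18.2%, against 24.4%) and 17 lower (51.5%, against 24.4%). The preoptic label had 3 of 31 higher (9.68%, against 8.37%) and 4 lower (12.9%, against 18.2%).

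The genes whose pattern was most like a member's are given as a description, since tissues and libraries share animals and scaling. Over the 64 tissue means of log2 levels, the profile of AGRP was closest to those of GALP (r = 0.97), GHRH (0.94) and MC3R (0.92). PMCH and HCRT were each other's closest rows (r = 0.92), and NPY1R was closest to NPY5R (0.91), which lies beside it in many mammalian genomes. MC4R was closest to HCRTR2 (0.84), LEPR to GHR, the growth hormone receptor (0.70), NPY to ISLR2 (0.88), POMC to CGA (0.90) and CARTPT to SCG2 (0.84). Over the hypothalamic libraries, 12 for each of 9 labels, Spearman's rho was highest between AGRP and POMC (0.86), ahead of GHRH (0.84) and TBX3 (0.83). For CARTPT it was highest with MRAP2 (0.79) and then TMEM35A (0.75) and TRH (0.74), for NPY with LHX2 (0.74), for PMCH with PARPBP (0.77) and HCRT (0.74), and for MC4R with OSCP1 (0.73). The AGRP-POMC value runs over all 9 labels, while the r of 0.227 above is within the arcuate nucleus.

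Outside the hypothalamus several member signals rested on single libraries. In the lungs PMCH was at 13764 FPKM at ZT0 and at 0 to 0.0703 FPKM in the other 11 libraries. That library also held HCRT at 13.1 FPKM and the neuronal gene SNAP25 at 222 FPKM, and it correlated best with the dorsomedial hypothalamus of the same labelled time (r = 0.916, against 0.775 with its best lung partner). In the liver CARTPT was at 283 FPKM at ZT0 and 296 FPKM at ZT6 and at or below 0.157 FPKM in the other 10, and SNAP25 in those 2 libraries was at 232.5 and 260 FPKM. LEPR was lowest in the same 2 liver libraries, at 1.08 and 0.963 FPKM; without them the liver mean of LEPR was 20.04 ± 12.01 FPKM and that of NPY1R 32.9 ± 9.28 FPKM (SD, n = 10). In the pineal gland POMC was at 753 FPKM at ZT6, where GH1 was at 3657 and PRL at 1140 FPKM, and at 1.54 to 8.05 FPKM in the other 11.

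The tissues outside the hypothalamus gave 164 rhythm tests of members, of which 5 passed, against 7.15% of all gene and tissue pairs. An unadjusted p below 0.05 was found for 26 of the 164 (15.9%), a smaller share than the 168533 of all 673923 pairs. CARTPT and NPY1R in the omental fat were 2 of these calls, out of 4 members tested in a tissue where 37.7% of all rows were called. CARTPT there was at 0 to 0.591 FPKM at ZT0 to ZT6 and at 9.34 to 63.6 FPKM at ZT8 to ZT22 (88.6-fold fitted range, peak ZT15.6, adjusted p = 0.0168), and NPY1R peaked at ZT3.86 (6.08-fold, adjusted p = 0.0222). ADIPOQ, the adiponectin gene of fat cells, was at 811 to 2081 FPKM in the first 4 of these libraries and at 68.5 to 546 FPKM in the later 8, of which 6 correlated best with stomach fundus or the label adrenal cortex. The part of this shift in both calls was not tested.

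The other 3 calls outside the hypothalamus rested on low levels. The share of all rows called was 7.53% in the spleen, 17.4% in the medial globus pallidus and 24.5% under the label adrenal medulla. MC4R in the spleen peaked at ZT13.1 with a 4.58-fold range (adjusted p = 0.0290), and its highest values were 10.3 FPKM at ZT14 and 9.41 FPKM at ZT12. POMC in the medial globus pallidus, at 0.140 to 3.97 FPKM, peaked at ZT7.00 (4.66-fold, adjusted p = 0.0113). AGRP under the label adrenal medulla peaked at ZT5.73 (6.37-fold, adjusted p = 0.0293) on 34 reads in all 12 libraries. The adrenal medulla label, which had the highest NPY1R level, carried the cortical enzyme CYP17A1 at 2928 to 13103 FPKM outside ZT0. DBH, the noradrenaline-synthesis gene of the medulla, was at 2110 FPKM at ZT0 and at most at 55.8 FPKM in the other 11. NPY1R was lowest (13.4 FPKM) and CARTPT highest (308 FPKM) in that ZT0 library.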

How the data were processed

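The authors deposited FPKM values, and STAR, featureCounts and DESeq2 are named in the submitters' processing notes with no version. Whole reads were recovered for 100% of values within 0.01 read. The step of 1 read showed that the deposited FPKM follow median-of-ratios library factors, so a library's level depends on all others. All libraries held 32790 to 31811286 reads (median 8255404). No column was left unmapped (0). From the deposited FPKM, log2(FPKM + 0.5) was fitted with limma 3.58.1 in R 4.3.3, with a variance trend and Benjamini-Hochberg adjustment over all rows with a mean of at least 1 FPKM, threshold 0.05. Each labelled time is 1 animal and 1 replicate. Same-animal deviations between nuclei correlated more than those of other animals in 36 of 36 nucleus pairs (median 0.113 against -0.00993), and the animal is shared by the labels. Rhythms were fitted as cosine plus sine of 24 h with a moderated F test. Correlations used 100000 permutations, two-sided. Scripts were tested on simulated data. Named genes are the 9 members, at most the 2 called genes of each pathway list and comparison with the largest log2 change, and the 3 rows with the most similar profile by each measure (some are left out of the text). Members and lists were chosen with earlier results of these data known. Pseudocounts, filters, scaling, covariates, single replicates and libraries were varied. No member sequence was used here.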

Additional observations from a re-analysis of the deposited data

How the results depend on the processing

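The count of rows that differed between the hypothalamus and other brain regions, 9810 as reported, was 6422 with a filter of 5 FPKM, which tests fewer rows, and 9328 to 9917 when each animal was left out in turn. The paired fit with the animal as a replicate block gave 10803 there, and 67560 for the contrasts of single nuclei, against 62864 without the block and 58043 to 64120 with an animal left out. The block ended 1 member call, NPY1R in the ventromedial hypothalamus (adjusted p = 0.0836). The 421 rhythmic rows in the mean over nuclei became 34 with a pseudocount of 0.1, 732 with a filter of 5 FPKM, 51 with median-of-ratios scaling within the fit, 37 without the libraries marked approx, 3 with a linear trend and 1265 with the main library axis as a covariate. In 2 settings chosen after seeing the data it was 857 without the ZT14 supraoptic and suprachiasmatic libraries and 4 without the mammillary label. Leaving out an animal gave 7 to 1173, and every animal except that of ZT8 moved the count by over 1.5 times; the cause was not tested. The 3828 rhythmic rows in single nuclei became 1988 with no filter, which tests more rows, 972 with a linear trend, 405 with the library axis and 1196 to 4367 with an animal left out. The 48193 outside the hypothalamus became 27551 with no filter. Of the 12 peptide correlations 1 passed, and 1 to 2 did when an animal was left out. Relative to neuron markers 2 passed, but there both genes share the subtracted marker mean. Of the member calls, 8 of 9 between the hypothalamus and other brain regions and 47 of 54 between nuclei were kept in every alternative that tested the member. For rhythms in single nuclei it was 0 of 1, and 0 calls reversed. A member with means below 5 FPKM was not tested with the filter of 5 FPKM, here or outside the hypothalamus. Outside the hypothalamus 4 of 5 rhythms were kept, but only 6 alternatives (pseudocounts, filters, scaling, variance trend) were run there, with no animal left out and no covariate. Of the members not called, 24 of 27 between nuclei and 7 of 9 rhythms in the mean over nuclei were called in no alternative. The MC4R rhythm in the spleen was lost with no filter (adjusted p = 0.0537). Leaving out libraries under 1 M (mega) reads touched only the comparison with other brain regions, since no hypothalamic library was that shallow. Low levels of MC4R, AGRP and HCRT outside their main nuclei rest on few reads, and with 1 male animal per time no effect of time can be separated from one of animal.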
